A study of Mus musculus with 5 samples.

Results

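The set described here holds 36 genes of excitatory and inhibitory postsynaptic scaffolds and of the regulators of spine actin, chosen by name. All 36 were found among the 55421 genes of the deposited count table, and all 36 passed the filter on low counts, which left 20388 genes for testing. Counts came from bulk RNA-seq of whole mouse cerebella at postnatal day 14. The 3 Yy1 cKO libraries came from Pcp2 Cre/+; Yy1 fx/fx mice, which carry a pair of floxed Yy1 alleles. The 2 control libraries came from littermates of the genotype Pcp2 Cre/+; Yy1 fx/+, so the controls also carried Cre and had 1 floxed allele. Pcp2 is a gene of Purkinje cells, whose axons carry the output of the cerebellar cortex, and Cre driven from it acts in those cells, while the RNA came from every cell of the tissue. The comparison asks which cerebellar transcripts differ when the gene of the transcription factor YY1 is deleted with a Purkinje cell Cre. In such bulk samples fewer cells of a type and less RNA per cell cannot be told apart.

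The postsynaptic density is a protein layer under the membrane of excitatory synapses. MAGUK proteins such as PSD95 hold glutamate receptors there, GKAP proteins bind MAGUK proteins and Shank proteins, and Homer proteins join Shank to metabotropic glutamate receptors and to the calcium stores of the spine. Spines are built of branched actin, which WAVE complexes nucleate, cofilin severs and drebrin stabilises. Purkinje cell dendrites carry very many spines that receive parallel fibres from granule cells and climbing fibres from the inferior olive, and in mice these dendrites grow and gain spines in the weeks after birth, while granule cell precursors finish dividing.

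Total counts were 17424860 to 20305705 per library. Yy1 itself stood at 74.6 and 73.7 CPM in the controls and 73.4, 81.7 and 75.8 CPM in Yy1 cKO, and since Cre acts in a small part of the cells and the deleted stretch is not counted apart, this level does not check the labels. Gabra6 and Calb1, markers of granule neurons and Purkinje cells, were abundant in every library. Ddx3y, a Y-linked gene, had 1175 counts in control 1, 1471 in Yy1 cKO 3 and 0 in the others, so each group held animals of both sexes. Yy1 cKO 3 stood apart from the other libraries on the second principal component, which held 18.5% of the variance. The labels do not say which animals gave each library. By Ddx3y, control 1 and control 2 came from different animals, and Yy1 cKO 3 from another animal than Yy1 cKO 1 and 2. Whether Yy1 cKO 1 and 2 came from different animals is not known, so the spread between them may be technical. Each p-value reflects the spread among these 5 samples alone.

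More of the 36 genes rose than fell, but the 4 largest changes were falls. In Yy1 cKO 16 genes rose and 9 fell (quasi-likelihood test of edgeR, threshold 0.05 on p adjusted over all tested genes by Benjamini-Hochberg), and 11 did not pass. The share that passed was 69.4%, against 23.4% of all 20388 genes tested. The members were chosen with earlier results of these data known, so the shares given here are no independent measure of an excess. Well-expressed genes pass more often: of the 10731 genes with a mean of at least 10 CPM (read counts scaled to a library total that TMM factors have adjusted) 31.3% passed, and of the 34 members above that level 70.6% did. Risers made up 44.4% of the members against 10.7% of all tested genes, and fallers 25% against 12.6%. At 10 CPM or more, risers were 47.1% of the members against 17.2% of the genes, and fallers 23.5% against 14.1%. The median log2 fold change was 0.09 in the members, 0.00 in all tested genes and 0.04 in tested genes at 10 CPM or more. The median size of the change regardless of sign was 0.34 in the members and 0.24 in all tested genes. It was 0.18 for all tested genes at 10 CPM or more. The split depended on how libraries were scaled. With scaling by library size alone, which shifted the median of all tested genes by -0.08, 10 members rose and 10 fell. It also depended on single libraries: 9 rose and 8 fell without Yy1 cKO 1, and 18 and 8 without Yy1 cKO 3. The share of all tested genes that passed in those fits moved too, to 16.7% and 30.5%. Leaving out 1 control lowered the number of calls both among the members and among all genes. In none of the alternatives tried did a called member change sign. The control and Yy1 cKO libraries did not overlap for any of the 25 called genes. Lack of overlap was common beyond the calls. It held for 26 of all 36 members and for 58 of the 79 further genes tested below, of which 36 passed. The share over all tested genes was not counted, so lack of overlap, here or below, is no added support for a call.

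**Figure D1:**
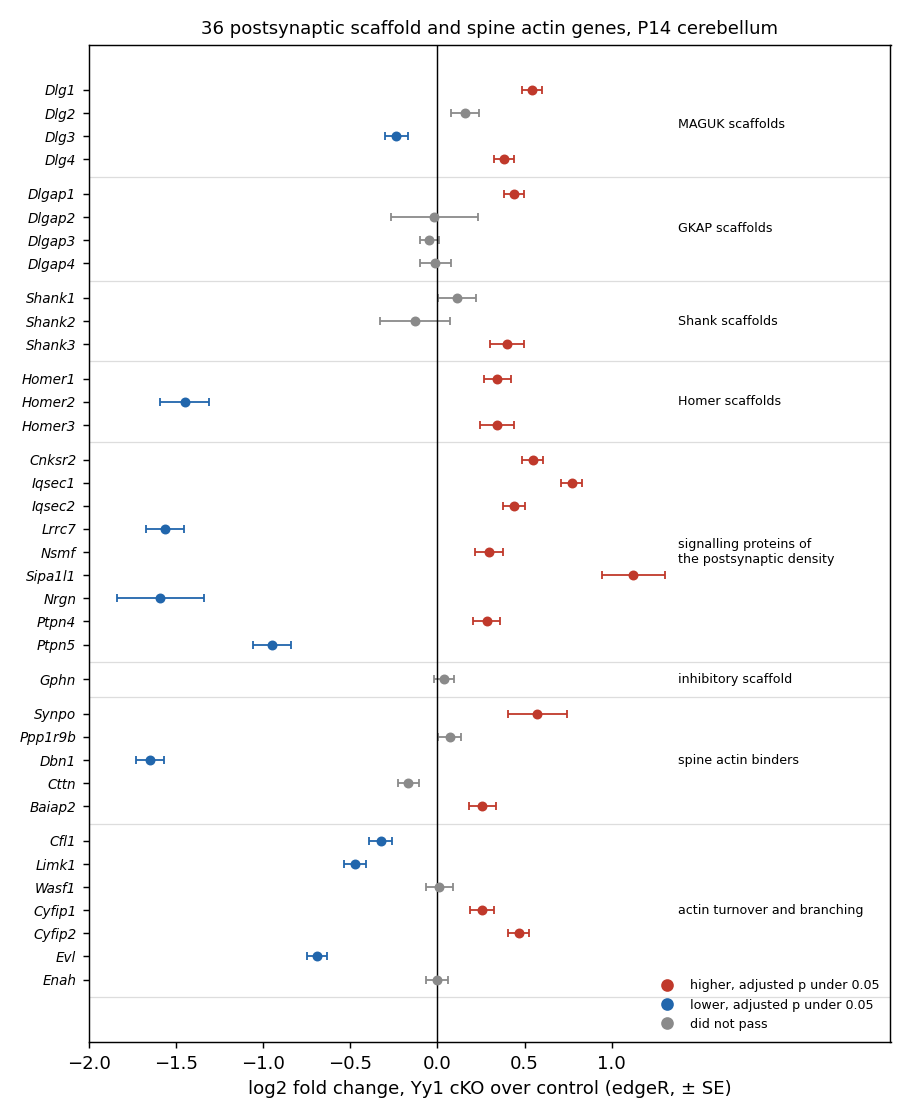
Log2 fold change (Yy1 cKO over control, edgeR) of each of the 36 genes on the x axis, with standard errors as bars, grouped by role. Red points passed the threshold as higher and blue points as lower. Dbn1, Nrgn, Lrrc7 and Homer2 lie below -1, and Sipa1l1 is the one gene above 1.

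Short stretches upstream of the start sites of 2 members are shown because they hold the core of the motif that YY1 itself binds. The motif GCCATNTT was searched on both strands in the RefSeq promoter windows of GRCm38.p6, from 250 bases before to 50 after each start. Of 29 members with a window 2 held it (6.9%), and 7 members had no window, against 6.96% of 27025 genes. One was Dlg1, which rose, at chr16:31663844-31663931 (plus strand), with the motif starting 51 bases before the start site. The other was Ptpn5, which fell, at chr7:47133685-47133749 (minus strand), with the motif starting 25 bases before the start site. Both read as GCCATCTT on the strand of the gene, and capitals mark the match.
Dlg1: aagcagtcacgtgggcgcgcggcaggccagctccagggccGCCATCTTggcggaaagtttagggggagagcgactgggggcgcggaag
Ptpn5: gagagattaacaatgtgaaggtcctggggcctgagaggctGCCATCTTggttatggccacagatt
The share of members with a match was close to that of all genes, and a match describes the letters only.

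Among the MAGUK scaffolds, Dlg1 and Dlg4 rose and Dlg3 fell. Dlg1 (ENSMUSG00000022770.17, chromosome 16, 31663443 to 31875129, GRCm38), which encodes SAP97, stood at 106 and 115 CPM in the controls and 159, 162 and 161 CPM in Yy1 cKO. The 3 Yy1 cKO libraries were nearly equal and lay 1.46-fold higher than the controls on average (log2 fold change 0.54 ± 0.058, SE, adjusted p = 0.00017). Dlg4, the gene of PSD95, stood at 293 and 303 CPM in the controls and 383, 397 and 386 CPM in Yy1 cKO, a rise of 0.38 ± 0.057 (adjusted p = 0.0012) with no overlap between the groups. Dlg3, whose product SAP102 is the MAGUK protein of young synapses, was lower in each Yy1 cKO library, at 100.4 and 97.9 CPM in the controls and 85.5, 88.8 and 78.4 CPM in Yy1 cKO. Its change of -0.23 ± 0.066 was small (adjusted p = 0.03), and the call did not hold without control 1 (adjusted p = 0.2), control 2 (0.14) or Yy1 cKO 1 (0.076) and with DESeq2 (0.073). Dlg2, the gene of PSD93, stood at 344 and 362 CPM in the controls and 413, 418 and 352 CPM in Yy1 cKO, and did not pass (0.16 ± 0.081, adjusted p = 0.2). Yy1 cKO 3 lay among the controls for this gene, and Dlg2 passed without that library (adjusted p = 0.0016). Per length of exon, Dlg4 led in both groups, with 22.5 CPM per kb among controls against 29.3 in Yy1 cKO. On this scale Dlg3 made up 23.8% of the family among controls, against 17.4% in Yy1 cKO, and Dlg1 went from 14.4% to 18.1%. Per kb of the longest transcript the shares of Dlg3 were 15.2% and 10.8%, and those of Dlg1 13.8% and 16.9%.

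Of the GKAP scaffolds, which link MAGUK proteins to Shank proteins, Dlgap1 alone rose. It stood at 309 and 303 CPM in the controls and 409, 415 and 421 CPM in Yy1 cKO, so that the lowest Yy1 cKO library was far above both controls (0.44 ± 0.057, adjusted p = 0.00052). Dlgap2, Dlgap3 and Dlgap4 had log2 fold changes between -0.05 and -0.01 and did not pass. Dlgap2 was close to absent, at 34 and 48 counts among controls, against 44, 38 and 44 in Yy1 cKO. Which member led depended on the length used: per kb of all annotated exons it was Dlgap3 in the controls (33.5 CPM per kb, against 17.1 for Dlgap1), and per kb of the longest transcript it was Dlgap1 (in Yy1 cKO 57.9 CPM per kb, against 34.8 for Dlgap3). By either length the share of Dlgap1 in the family was higher in Yy1 cKO, at 31.9% against 25.2% by all exons and 47.2% against 39.2% by the longest transcript.

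Shank3 rose, while Shank1 and Shank2 did not pass. Shank proteins are the deepest layer of the density and tie GKAP to Homer and to actin. Shank3 stood at 306 and 285 CPM in the controls and 408, 422 and 337 CPM in Yy1 cKO, with all 3 Yy1 cKO libraries above the controls but Yy1 cKO 3 nearest to them. The rise of 0.40 ± 0.097 (adjusted p = 0.019) did not hold without control 1 (adjusted p = 0.082), control 2 (0.15), Yy1 cKO 1 (0.063) or Yy1 cKO 2 (0.053). Shank1, the highest of the family per kb in both groups, stood at 601 and 563 CPM in the controls and 668, 691 and 528 CPM in Yy1 cKO (0.11 ± 0.11, adjusted p = 0.54). The controls lay between Yy1 cKO 3 and the other Yy1 cKO libraries, and without Yy1 cKO 3 Shank1 passed as higher (adjusted p = 0.0043). Shank2, named here after its values were seen, stood at 406 and 425 CPM in the controls and 418, 436 and 285 CPM in Yy1 cKO. Yy1 cKO 1 and 2 lay near the controls and Yy1 cKO 3 far below all other libraries, and Shank2 did not pass (-0.13 ± 0.2, adjusted p = 0.71).

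The Homer genes moved in opposite directions, and all 3 passed. Homer proteins bind group I metabotropic glutamate receptors, the calcium release channel of the stores and Shank. Homer2 (ENSMUSG00000025813.14, chromosome 7, 81600481 to 81707527) stood at 98.2 and 138 CPM in the controls and 44.5, 44.3 and 40.7 CPM in Yy1 cKO. The controls differed from each other, yet both lay far above every Yy1 cKO library, and the mean fell by 63.4% (log2 fold change -1.45 ± 0.14, adjusted p = 0.00096). This call did not hold without Yy1 cKO 3, where the change was -1.41 (adjusted p = 0.053). Homer1 rose, at 82.2 and 85.9 CPM in the controls and 101, 101 and 118 CPM in Yy1 cKO (0.34 ± 0.077, adjusted p = 0.01), although not without control 1 (adjusted p = 0.12) or control 2 (0.065). Counts per gene do not separate the short, activity-induced form of Homer1 from the long forms. Homer3, the form known from Purkinje cell spines, stood at 140.1 and 169 CPM in the controls and 200.2, 211 and 176 CPM in Yy1 cKO. The highest control lay just below the lowest Yy1 cKO library, and the rise of 0.34 ± 0.1 was at the edge of the threshold (adjusted p = 0.049). It did not hold without control 1 (adjusted p = 0.28), Yy1 cKO 1 (0.13) or Yy1 cKO 2 (0.12) and under library-size scaling (0.087), and 25.4% of its exon length overlaps Ddx49 on the other strand. Per kb of exon Homer3 was the main Homer transcript, with 73.3% of the family among controls, against 82.1% in Yy1 cKO, while Homer2 went from 15.2% to 4.95%.

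**Figure D2:**
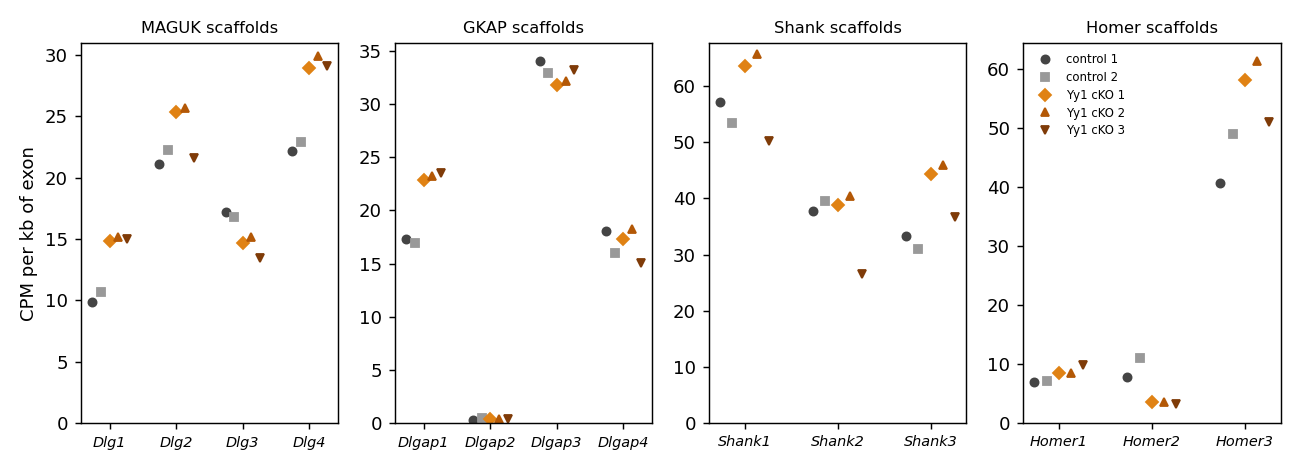
Level of each MAGUK, GKAP, Shank and Homer gene in CPM per kb of annotated exon (y axis, starting at 0), with 1 point per library: grey for the controls and orange to brown for Yy1 cKO. Homer3 stands far above Homer1 and Homer2, Dlgap2 is near 0, and Yy1 cKO 3 (downward triangles) is the lowest of all libraries for Shank1 and Shank2 and the lowest Yy1 cKO library for Shank3.

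All 9 signalling proteins of the density passed, with 6 higher and 3 lower. The highest riser was Sipa1l1 (ENSMUSG00000042700.16, chromosome 12, 82169320 to 82451786), the gene of the Rap GTPase-activating protein SPAR, which binds PSD95 and actin in spines. It stood at 53.0 and 53.4 CPM in the controls and 106, 98.8 and 143 CPM in Yy1 cKO. The controls were almost equal, every Yy1 cKO library was far above them with Yy1 cKO 3 the highest, and the mean rise was 1.12 ± 0.18 (adjusted p = 0.01). That call did not hold without control 1 (adjusted p = 0.065) or control 2 (0.067). Iqsec1 (ENSMUSG00000034312.15, chromosome 6, 90656088 to 90988685) encodes an exchange factor for the GTPase ARF6, which drives AMPA receptor endocytosis, and it stood at 264 and 252 CPM in the controls and 443, 435 and 443 CPM in Yy1 cKO. The libraries of each group were close to each other, and Iqsec1 was 1.71-fold higher in Yy1 cKO (0.77 ± 0.058, adjusted p = 2.4e-05). Its relative Iqsec2, on the X chromosome, rose by 0.44 ± 0.061 (adjusted p = 0.00077) and stood at 102 and 99.0 CPM in the controls and 131, 134 and 143 CPM in Yy1 cKO. Cnksr2, a scaffold of Ras and Rac signalling that binds PSD95 and is also X-linked, stood at 234 and 220.5 CPM in the controls and 338, 320.1 and 337 CPM in Yy1 cKO (0.55 ± 0.06, adjusted p = 0.00019). With log2 CPM of Xist as a covariate the X-linked members Cnksr2, Iqsec2 and Dlg3 all still passed (adjusted p = 0.00023, 0.00076 and 0.029).

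A pair of smaller rises lost their calls in several alternative fits. Nsmf, the gene of the synapse-to-nucleus messenger Jacob, stood at 49.8 and 49.0 CPM in the controls and 58.3, 56.3 and 67.3 CPM in Yy1 cKO (0.30 ± 0.083, adjusted p = 0.03). Ptpn4, a tyrosine phosphatase with a PDZ domain that binds glutamate receptors, stood at 315 and 312 CPM in the controls and 381, 414 and 349 CPM in Yy1 cKO (0.28 ± 0.076, adjusted p = 0.024). In neither gene did the groups overlap, but both calls did not hold without control 1 (adjusted p = 0.15 and 0.14), without control 2 (0.18 and 0.16), without Yy1 cKO 1 (0.058 and 0.076) and under library-size scaling (0.1 and 0.067). The call of Ptpn4 also did not hold without Yy1 cKO 2 (adjusted p = 0.072).

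The 3 signalling genes that fell did so strongly, and their calls held in all 14 alternatives. Lrrc7 (ENSMUSG00000028176.13, chromosome 3, 158082891 to 158562221), the gene of densin, which binds CaMKII and alpha-actinin in the density, stood at 51.1 and 52.0 CPM in the controls and 15.3, 17.1 and 19.9 CPM in Yy1 cKO. Every Yy1 cKO library lay far below both controls, and the mean fell by 66.2% (-1.56 ± 0.11, adjusted p = 1.3e-05). Ptpn5, the gene of the phosphatase STEP, whose upstream stretch is shown above, stood at 24.1 and 22.4 CPM in the controls and 10.8, 13.2 and 12.1 CPM in Yy1 cKO, and fell by 48.2% (-0.95 ± 0.11, adjusted p = 0.00033). Nrgn, the calmodulin-binding protein neurogranin of forebrain neurons, was rare here, at 60 and 55 counts among controls, against 19, 17 and 23 in Yy1 cKO (-1.59 ± 0.25, adjusted p = 0.0016). Both groups were tight for these genes, and none overlapped. Beside Nrgn, the forebrain marker Emx1 had at most 2 counts per library. Neurod6, another forebrain marker, stood at 93 and 79 counts among controls, against 42, 43 and 40 in Yy1 cKO, and it fell (-1.09 ± 0.19, adjusted p = 0.0032). The part of such cells in the change of Nrgn was not tested.

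The one inhibitory scaffold of the set, Gphn, which encodes gephyrin and anchors glycine and GABA-A receptors, stood at 97.7 and 93.6 CPM in the controls and 101, 99.0 and 94.8 CPM in Yy1 cKO. The groups overlapped, and Gphn did not pass (0.04 ± 0.059, adjusted p = 0.69). Its log2 fold change lay between -0.04 and 0.07 over the 14 alternatives.

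Among proteins that bind spine actin, Dbn1 had the largest fall of all 36 genes and the smallest p. Dbn1 (ENSMUSG00000034675.17, chromosome 13, 55473429 to 55488111) encodes drebrin, which coats actin filaments in dendritic spines and, in an embryonic form, in migrating neurons and growth cones. It stood at 107 and 103 CPM in the controls and 33.4, 36.7 and 30.3 CPM in Yy1 cKO. All 3 Yy1 cKO libraries lay far below both controls: the mean fell by 68.1% (-1.65 ± 0.079, adjusted p = 1.9e-06), and the log2 fold change was -1.73 to -1.58 over the 14 alternatives. Synpo, the gene of synaptopodin of the spine apparatus, went the other way at a low level, with 8.81 and 12.4 CPM in the controls and 15.2, 14.2 and 18.0 CPM in Yy1 cKO (0.57 ± 0.17, adjusted p = 0.036). The controls differed from each other, and the call did not hold without control 1 (adjusted p = 0.29), Yy1 cKO 1 (0.08) or Yy1 cKO 2 (0.051), with the Xist covariate (0.054) and under library-size scaling (0.064). Baiap2, the gene of IRSp53, which bends membrane and recruits Rac effectors, stood at 103 and 97.9 CPM in the controls and 128, 124 and 107 CPM in Yy1 cKO. Its rise of 0.26 ± 0.079 (adjusted p = 0.043) held in 6 of the 14 alternatives; it was lost with DESeq2 (adjusted p = 0.054), limma-voom (0.063), limma on the normalized signal (0.058) and library-size scaling (0.13) and without control 1 (0.15), control 2 (0.25), Yy1 cKO 1 (0.14) or Yy1 cKO 2 (0.12). Ppp1r9b, the gene of spinophilin, was the highest of this group, at 464 and 469 CPM in the controls and 488, 518 and 464 CPM in Yy1 cKO, and did not pass (0.07 ± 0.065, adjusted p = 0.49). Cttn, the gene of cortactin, changed by -0.17 ± 0.06 on the log2 scale (adjusted p = 0.072) and passed as lower only under library-size scaling (adjusted p = 0.014).

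Of the genes of actin turnover and branching 2 rose and 3 fell. Cyfip2, a subunit of the WAVE complex that also binds the fragile X protein, stood at 376 and 369 CPM in the controls and 534, 518 and 492 CPM in Yy1 cKO (0.47 ± 0.062, adjusted p = 0.00063). Its paralog Cyfip1 rose less, with 74.2 and 74.2 CPM in the controls and 88.0, 83.2 and 94.8 CPM in Yy1 cKO (0.26 ± 0.068, adjusted p = 0.023), and that call did not hold without control 1 (adjusted p = 0.15), control 2 (0.14) or Yy1 cKO 1 (0.065) and under library-size scaling (0.1). Part of the exons of Cyfip1 (12.5% of their length) overlaps genes on the other strand. Wasf1, the gene of WAVE1 of the same complex, did not pass, and its groups overlapped (0.01 ± 0.076, adjusted p = 0.94).

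Of the 3 that fell, Evl, an Ena/VASP protein that lengthens actin filaments, stood at 106 and 108 CPM in the controls and 68.7, 67.5 and 63.2 CPM in Yy1 cKO. The libraries of each group were tight, and the mean fell by 38% (-0.69 ± 0.06, adjusted p = 5.1e-05). Of its exon length 9.46% overlaps Degs2 on the other strand. Its relative Enah did not pass (adjusted p = 0.98). Limk1, the kinase that switches cofilin off, stood at 63.1 and 58.9 CPM in the controls and 44.1, 44.6 and 43.2 CPM in Yy1 cKO (-0.47 ± 0.065, adjusted p = 0.00073). Cfl1, cofilin itself, stood at 431 and 432 CPM in the controls and 340.5, 365 and 327 CPM in Yy1 cKO (-0.33 ± 0.064, adjusted p = 0.0055), and this call did not hold without control 1 (adjusted p = 0.057) or control 2 (0.065). The groups did not overlap in any of the 3 genes that fell. The value of Cfl1 is uncertain, because processed pseudogenes can share its reads. Also, 16.5% of its exon length overlaps Snx32 on the other strand. Here, as for Homer3, Cyfip1 and Evl, such overlap matters only if counting ignored strand, a setting that is not given. Neither the effect of pseudogenes nor that of overlap was tested.

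**Figure D3:**
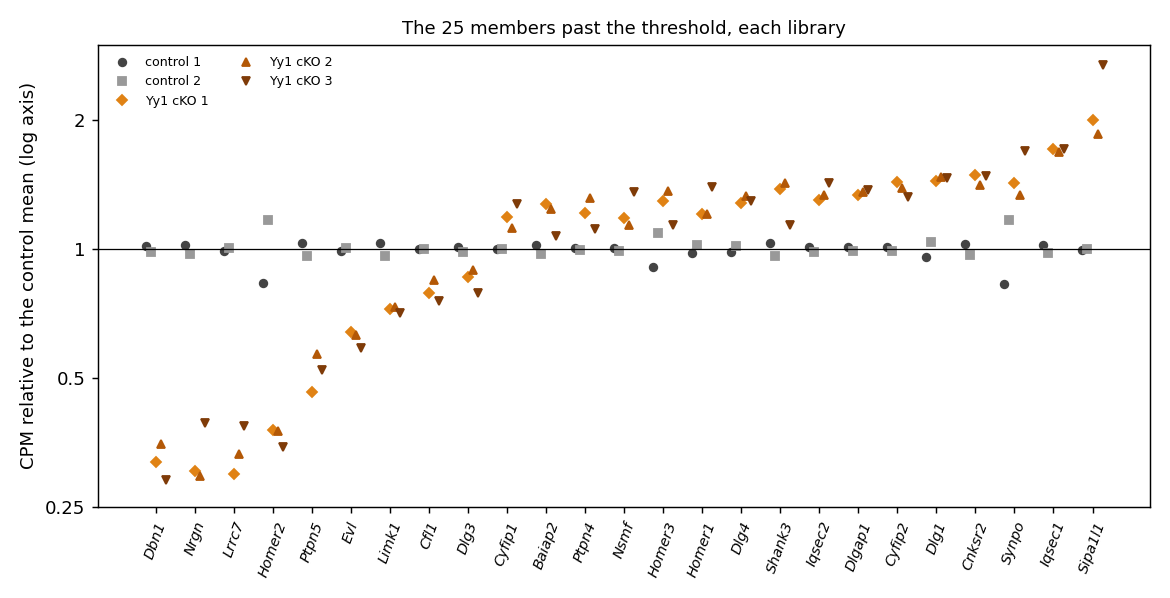
CPM of each of the 25 members past the threshold, relative to the mean of the 2 controls (y axis, log scale), with 1 point per library and genes ordered by log2 fold change. Controls (grey) scatter around 1, most widely for Homer2 and Synpo, and Yy1 cKO libraries are far below 1 for Dbn1, Nrgn, Lrrc7 and Homer2 and highest for Sipa1l1.

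Further genes of the same structures were taken from a pair of lists. Of 38 other postsynaptic density genes 14 rose and 7 fell, with a median log2 fold change of 0.06. Tanc1 (0.63 ± 0.055, adjusted p = 4.8e-05), a scaffold that binds PSD95, and Tiam1, a Rac exchange factor (0.68 ± 0.08), were among the 4 risers with the smallest p, with Agap2 (0.41 ± 0.062) and Caskin1 (0.38 ± 0.056). The relatives of a pair of risers fell. Tanc2 stood at 193 and 174 CPM in the controls and 81.6, 75.2 and 79.1 CPM in Yy1 cKO (-1.22 ± 0.065, adjusted p = 3.3e-06), opposite to Tanc1, and Sipa1l2 at 161 and 158 CPM in the controls and 107, 95.8 and 112 CPM in Yy1 cKO (-0.60 ± 0.07, adjusted p = 0.00029), opposite to Sipa1l1. Sorbs2 (-0.50 ± 0.07) and Cnih2, an auxiliary protein of AMPA receptors (-0.66 ± 0.085), fell as well.

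Of 41 other spine actin regulators tested 8 rose and 7 fell, with a median of -0.06, and 1 more, Was, had too few counts. Actb, cytoplasmic actin, stood at 1587 and 1632 CPM in the controls and 1171, 1219 and 1092 CPM in Yy1 cKO (-0.47 ± 0.07, adjusted p = 0.0012). Processed pseudogenes can share the reads of Actb, and their effect on its value was not tested. Dstn, a relative of cofilin (-0.39 ± 0.054), Arpc5, a subunit of the Arp2/3 complex (-0.54 ± 0.066), and the kinase Pak3 (-0.60 ± 0.075) fell, while Srgap3 (0.51 ± 0.06), Wasl (0.38 ± 0.058), Myo5a, the motor that carries endoplasmic reticulum into Purkinje cell spines (0.45 ± 0.077), and Cap2 (0.56 ± 0.1) rose. The call of Cap2 did not hold without control 1 (adjusted p = 0.051) or control 2 (0.054). Over both lists 22 of 79 tested genes rose and 14 fell, with 17 and 22 under scaling by library size alone, and 14 and 10 without control 2. In all 36 of these 79 genes passed, beside 23.4% of all tested genes and 31.3% of those at 10 CPM or more.

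Markers of several cell types moved beside these genes. Of 7 markers of granule cell precursors 7 fell (median -4.22), and their summed level was 184 to 213 CPM in the controls and 28.0 to 31.2 CPM in Yy1 cKO, with Atoh1 at 0 counts in 2 Yy1 cKO libraries. Of 7 markers of immature neurons 7 fell (median -3.72), from 1323 to 1374 CPM in sum to 443 to 546 CPM, with Nhlh1 at 0 counts in 1 Yy1 cKO library. Of 7 markers of mature granule neurons 5 rose and 0 fell (median 0.51; 2738 to 2844 CPM in sum against 3502 to 3891), and of 7 markers of Golgi cells and interneurons of the molecular layer 4 rose and 0 fell (median 0.57; 502 to 521 CPM against 753 to 767). Of 8 Purkinje cell markers 2 rose and 0 fell (median 0.16; 3897 to 4117 CPM against 4690 to 5525). The gap between these sums was carried by Itpr1: the other 7 summed to 2349 and 2593 CPM among controls, against 2759, 2720 and 2435 in Yy1 cKO, and overlapped. The other riser, Pvalb, did not hold without control 2 (adjusted p = 0.2), Yy1 cKO 1 (0.067) or Yy1 cKO 2 (0.066), and without Yy1 cKO 3 the count was 3. Oligodendrocyte precursor markers fell in 5 of 5 cases, from 237 to 250 CPM in sum to 152 to 173 CPM. Without control 2 the count was 2 of 5, and without control 1 or Yy1 cKO 2 it was 3. Erythroid markers rose in 4 of 5 cases (262 to 302 CPM against 594 to 961), but in edgeR in 0 of 5 without control 1 (adjusted p of the 4 from 0.081 to 0.17) or without control 2 (from 0.071 to 0.15), in 2 without Yy1 cKO 2, in 1 without Yy1 cKO 3 and in 1 with the Xist covariate. The part of these cell types in the members' changes was not tested.

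**Figure D4:**
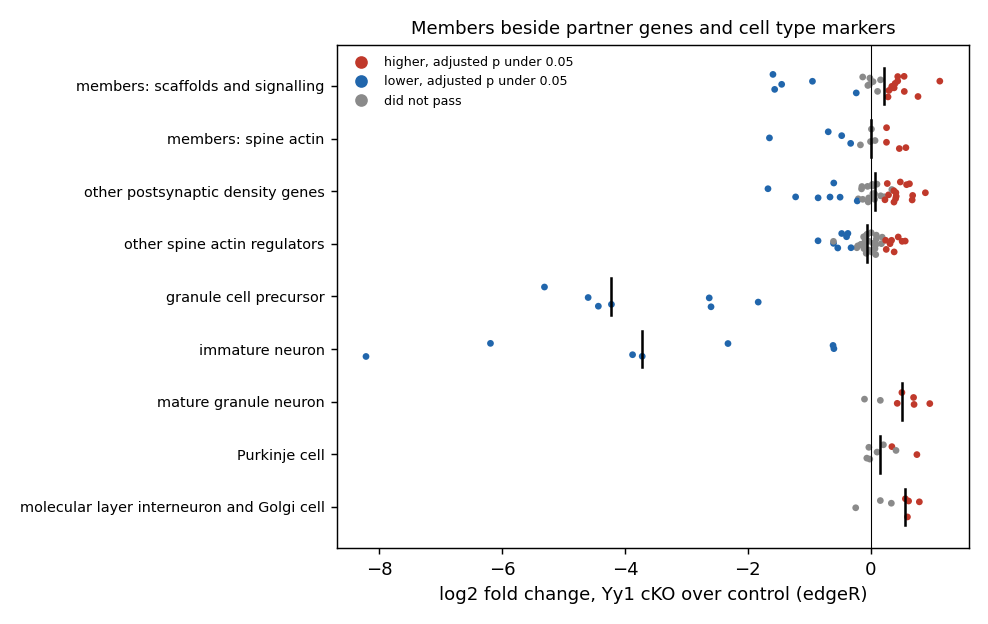
Log2 fold change (Yy1 cKO over control, x axis) of the members, of the further postsynaptic and actin genes and of markers of 5 cell types, with 1 point per gene and a black line at the median of each list. The medians of granule cell precursor and immature neuron markers, -4.22 and -3.72, lie to the left of every member, and those of mature granule neurons and of Golgi cells and interneurons, 0.51 and 0.57, to the right of 0.

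Yy1 cKO 3 was below Yy1 cKO 1 and 2 for the Shank genes and above them for Sipa1l1. Relative to the mean of the other Yy1 cKO libraries its level was 0.668 times as high for Shank2, 0.778 for Shank1 and 0.812 for Shank3, the 3 lowest ratios of all 36 genes. Sipa1l1, at 1.39, had the highest, followed by Nrgn (1.31), Synpo (1.23) and Lrrc7 (1.22). Several Purkinje cell markers were low in the same library: the ratio was 0.619 for Car8, 0.559 for Pcp4, 0.677 for Ppp1r17 and 0.820 for Itpr1, but 1.92 for Pcp2 and 1.17 for Calb1. The summed level of the 8 Purkinje cell markers was 5456, 5525 and 4690 CPM in Yy1 cKO 1, 2 and 3. The part of these markers in the Shank values was not tested. Yy1 cKO 3 was the only Yy1 cKO library with Y-linked transcripts. Within Yy1 cKO, sex therefore cannot be told apart from any other trait of that library, with or without Xist as a covariate. Control 1, which had Y-linked transcripts as well, was above control 2 for Shank1 and Shank3 and below it for Shank2. With Xist as a covariate the log2 fold changes were 0.08 for Shank1 (adjusted p = 0.63), -0.20 for Shank2 (0.3) and 0.38 for Shank3 (0.02). Each stayed on the same side of the threshold as without it. The standard errors of Shank1, Shank2 and Shank3 were 0.1, 0.12 and 0.09 with Xist and 0.11, 0.2 and 0.097 without it. The part of sex in the Shank values was not tested.

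**Figure D5:**
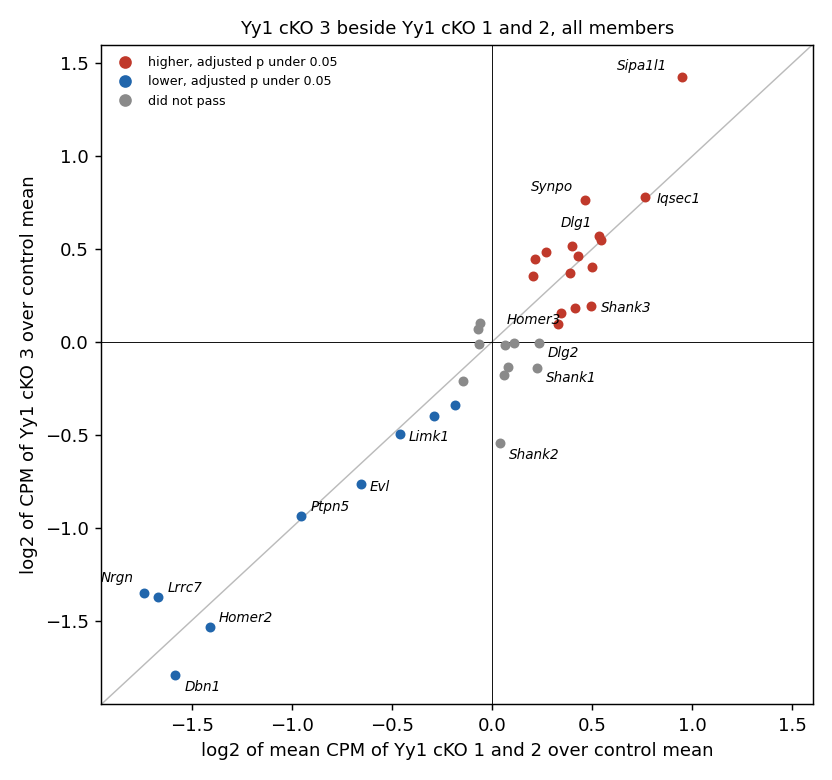
Log2 ratio to the control mean for each of the 36 genes, with the mean of Yy1 cKO 1 and 2 on the x axis and Yy1 cKO 3 on the y axis, and the line of equality in grey. Both axes use the same controls. Shank1, Shank2 and Shank3 lie below the line and Sipa1l1 above it, while Dbn1, Homer2, Lrrc7 and Nrgn are low on both axes.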

How the data were processed

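Per the labels, RNA from whole cerebella was depleted of ribosomal RNA and made into strand-specific libraries, sequenced as paired reads of 150 bp. Reads were handled with STAR 2.7.1a, Trimmomatic 0.39 and FastQC 0.11.8, featureCounts was used, and DESeq2 1.26.0 is listed too, all per the submitters' processing notes, which name GRCm38, with settings not given in the sources used here. The authors deposited raw read counts per gene and a normalized signal, which in each library equals the count divided by 1 constant. Symbols, positions and exon lengths came from GENCODE M21 (GRCm38): 54673 identifiers matched with their version, 567 without it and 181 did not match. Raw counts were tested with the edgeR 4.0.16 quasi-likelihood test in R 4.3.3 (TMM scaling, filterByExpr, robust dispersion, Benjamini-Hochberg adjustment over 20388 genes, threshold 0.05), which was first checked on simulated counts. CPM are TMM-scaled, and standard errors come from the F statistic. Pairs of libraries within a group differed by more than sampling noise (chi-square of 3.51 to 16.7 per gene), so none was a copy. All 36 members are accounted for. Those past the threshold are given by library, others where they were the highest of their role group, and of each further list up to 4 genes per direction by smallest p. Members, lists and tests were chosen with earlier results of these data known. Some marker genes are not reported here. Alternatives, which include limma 3.58.1 and DESeq2 1.42.0, are given in the closing section.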

Additional observations from a re-analysis of the deposited data

How the results depend on the processing

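Of the 25 called members 13 (7 higher and 6 lower) stayed past the threshold in all 14 alternative fits, 5 were lost only when a library was left out, and 7 were also lost in another fit, with their values given above. The members higher in Yy1 cKO numbered 16 in the test as planned, 10 with scaling by library size alone, 8 at an adjusted p of 0.01, and 7 to 18 when a library was left out. The lower members, 9 in the test as planned, numbered 7 to 10 in every fit. Over all tested genes 2185 were higher and 2577 lower; library size alone gave 1432 higher (29.8% of calls, against 45.9%), an adjusted p of 0.01 gave 1095 higher and 1453 lower, and leaving out a library gave 887 to 2990 higher and 1267 to 3127 lower. Of the further postsynaptic and actin genes 22 were higher and 14 lower, with 22 lower under library size alone and 14 to 27 higher when a library was left out. Replicate numbers are shared between the groups, but the labels do not say that they mark a litter or a batch, and the deviations of same-numbered libraries correlated at 0.04 and 0.01. With the replicate number as a block 3486 genes were higher. That block leaves Yy1 cKO 3 without a partner, and it called 18 members higher and 9 lower. With a single control in a fit, that control is taken to vary as the Yy1 cKO group does. Depth limits Dlgap2 and Nrgn, with at most 60 counts in any library.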
